A study of Canis lupus familiaris with 4 samples.

Results

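Surface molecules that mark T, NK, B, plasma and mast cells were followed in canine mammary tumours of grade 3, the most malignant, against grade 1. A probe was taken as a member when it was no control and its name on the array was the dog RefSeq mRNA accession of CD3E, CD4, CD8A, KLRD1, IL2RG, MS4A1, CD38, CD52 or FCER1A. This gave 11 of 43603 probes, for 8 of the 9 genes, among 1045 genes that had a probe named in this way. CD3E, a chain of the T cell receptor complex, had no probe under such an accession and was not analysed here. CD8A, CD38 and FCER1A had 2 probes each and the other 5 genes had 1.

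Every one of the 4 two-colour arrays carried RNA of both grades, so each gave one ratio of grade 3 over grade 1. Grade 3 was labelled with Cy5 and grade 1 with Cy3 on 2 arrays (replicates 1 and 2), and the dyes were exchanged on the other 2 (again replicates 1 and 2). Values of the 4 arrays are given below in this order: grade 3 in Cy5, replicates 1 and 2, then grade 1 in Cy5, replicates 1 and 2. The labels give no age, breed or number of dogs, and it is not stated whether arrays repeat an extract. The p-values therefore cover array to array spread alone, and that spread could be technical. Sample titles name tumours, but by the labels' protocols cancer cells had been cultured beside monocytes, 72 h or longer, before a sorter separated them, so it is not settled whether tissue or cultured cells were hybridised. In either kind of sample, fewer cells of a type and less RNA per cell cannot be told apart.

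Infiltrating lymphocytes are told apart by a few surface proteins. CD4 and CD8 are co-receptors that bind MHC class II and class I molecules, KLRD1 (CD94) pairs with NKG2 proteins on NK cells and some T cells, and MS4A1 (CD20) is found on B cells until they become plasma cells, which carry much CD38. Mast cells and basophils bind IgE through a receptor of an alpha chain (FCER1A), a beta chain (MS4A2) and gamma chains (FCER1G). None of these genes belongs to one cell type alone: canine neutrophils also carry CD4, many cells express CD38, CD52 is also made in the male reproductive tract, and IL2RG, the common gamma chain of the interleukin receptors, is shared by lymphoid and myeloid cells. Probe sequences were not used here.

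Of the 11 probes, 10 were called lower in grade 3 and 1, for IL2RG, higher (limma adjusted p under 0.05). By the brightest probe of each gene, 7 genes fell and 1 rose. Over all 35410 probes tested, 61.6% were called in either direction, 30.5% lower and 31.1% higher, and of the 925 named genes 46.1% were called lower and 24.1% higher. A call was thus common on these arrays, and the count of 10 in 11 is read against those shares and not as a test. The median log2 fold change was -0.59 over the 8 genes, 0.0045 over all tested probes and -0.09 over named genes. Each of the 11 probes kept its sign across the 4 arrays. For 10 of them this came with a lower call, against 25.7% of tested probes. An exact sign test over 4 arrays cannot go below p = 0.125, so the calls rest on the spread shared across probes by the fit.

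**Figure D1:**
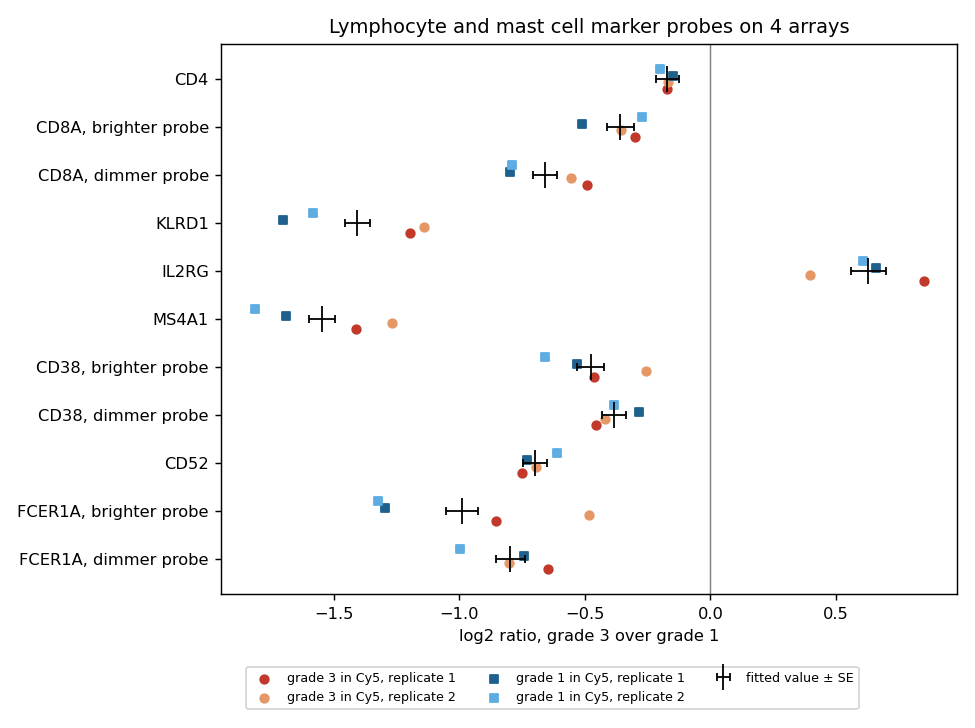
Log2 ratio of grade 3 over grade 1 (horizontal axis) for the 11 marker probes on each array (points, circles with grade 3 in Cy5 and squares with grade 1 in Cy5), with the fitted value and its SE (black). All points except those of IL2RG lie below 0, and MS4A1 and KLRD1 lie lowest at -1.55 and -1.41; with scaling to spike-in controls, CD4, CD8A and CD38 lay above 0.

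Signal was read before any ratio. All 88 member readings (11 probes, 4 arrays, both dyes) were well above background by Feature Extraction's mark, none was saturated, and none had a marked spot or a marked local background. Signal over local background ran from 3.14 to 68.7, where the array medians over all probes ran from 6.90 to 12.7. In these values, which carry no normalization, every grade 3 value lay above every grade 1 value for 49.5% of tested probes and below for 2.17%. Among the 11 marker probes 4 lay below (MS4A1, KLRD1 and both FCER1A probes), 1 above (IL2RG), and 6 overlapped. A fold change after loess compares a probe with the bulk of its own array. Spike-in controls, RNA added in known amounts, averaged -0.67 on the log2 scale for grade 3 over grade 1, and with arrays scaled to them the median of all probes became 0.67.

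**Figure D2:**
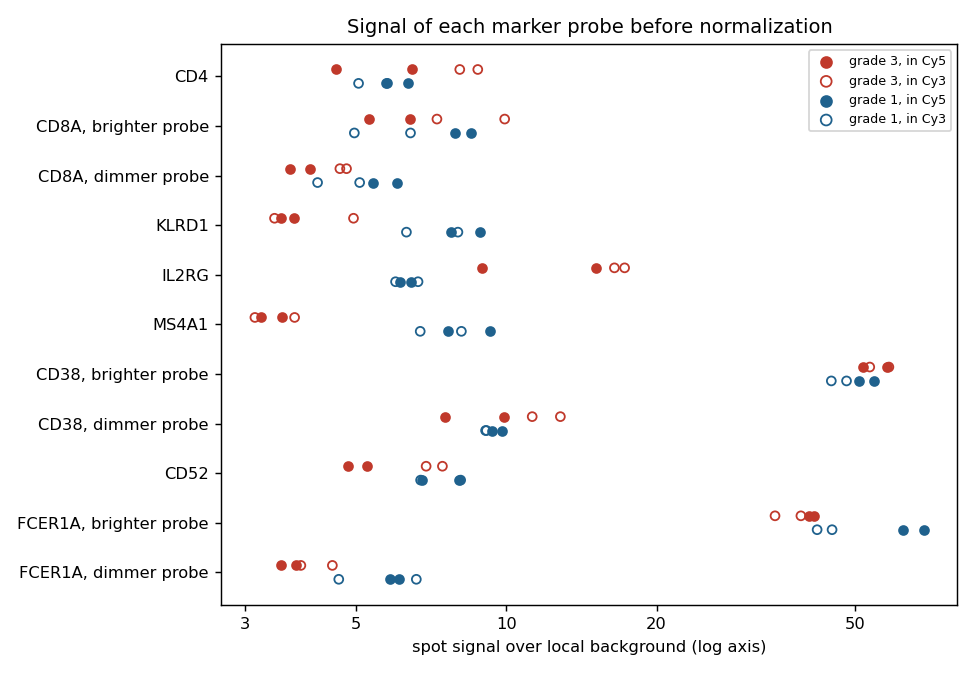
Spot signal over local background (log axis) of the 11 probes in grade 3 (red) and grade 1 (blue), filled where the grade was in Cy5 and open where it was in Cy3. MS4A1 in grade 3 lay between 3.14 and 3.77 times background and in grade 1 between 6.72 and 9.27, while CD4, CD8A, CD38 and CD52 overlapped between grades before normalization.

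MS4A1, the B cell antigen CD20, was the lowest of the markers. Its signal over background in grade 3 was 3.23, 3.55, 3.14 and 3.77 on the 4 arrays. In grade 1 it was 6.72, 8.13, 7.66 and 9.27 on the same arrays. The grades did not overlap, and the grade 3 spots stood close to the dim end of the markers. After normalization the log2 ratios were -1.41, -1.27, -1.69 and -1.81, lower on 4 of 4 arrays and lower still where grade 1 carried Cy5. MS4A1 was 2.92-fold lower in grade 3 (fitted log2 ratio -1.55, SE 0.05, 4 arrays, with limma adjusted p = 1.04e-08), and 0.463% of tested probes were as low. Feature Extraction's processed signals, which hold no added offset, gave 5.00-fold lower. With the local backgrounds of all spots as measured, in place of replacing those marked as outliers, the value was 1.88-fold lower and not called (adjusted p = 0.0769).

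KLRD1, the NK cell receptor CD94, followed closely. Its signal over background in grade 3 was 3.53, 3.75, 3.43 and 4.94. In grade 1 it was 6.31, 8.0, 8.87 and 7.76, again without overlap. The log2 ratios were -1.19, -1.14, -1.70 and -1.58, so the arrays with grade 1 in Cy5 gave the larger differences here too. KLRD1 was 2.65-fold lower (fitted log2 ratio -1.41, SE 0.05, with limma adjusted p = 1.4e-08), with 0.624% of tested probes as low. The ranges of the 4 ratios of KLRD1 and MS4A1 overlapped. Processed signals gave 4.66-fold lower, and backgrounds as measured 1.75-fold lower without a call (adjusted p = 0.0672).

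FCER1A, the IgE-binding chain of mast cells and basophils, fell by both probes. The brighter probe, far above background, read 40.4, 41.3, 34.5 and 38.9 times background in grade 3. In grade 1 it read 44.9, 41.9, 62.3 and 68.7 times background. The grades came close with grade 3 in Cy5 and stood apart with grade 1 in Cy5, as the log2 ratios of -0.85, -0.48, -1.29 and -1.32 also show. The probe was 1.98-fold lower (fitted log2 ratio -0.99, SE 0.06, with limma adjusted p = 7.55e-07). It stayed called with backgrounds as measured (1.88-fold, adjusted p = 0.0047) and with spike-in scaling, where its log2 ratio shrank to -0.32 (adjusted p = 0.00173). The dimmer probe had ratios of -0.65, -0.80, -0.74 and -0.996 and was 1.74-fold lower (adjusted p = 1.8e-06), and its call was lost with backgrounds as measured (adjusted p = 0.0984) and with spike-in scaling (adjusted p = 0.21). The brighter probe minus the dimmer differed by -0.19 ± 0.37 (SD, 4 arrays) and was positive on 1 array, so the probes did not differ beyond their spread.

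CD52, a small glycoprotein anchored on lymphocytes, had the steadiest ratios among the larger changes. They were -0.75, -0.70, -0.73 and -0.61 on the 4 arrays, with no split by dye. CD52 was 1.62-fold lower (fitted log2 ratio -0.70, SE 0.05, with limma adjusted p = 1.39e-06). Before normalization its signal over background overlapped, 4.81 to 7.45 in grade 3 and 6.74 to 8.10 in grade 1. The call was lost with backgrounds as measured (1.32-fold lower, adjusted p = 0.0827) and with spike-in scaling (log2 fold change -0.03, adjusted p = 0.77).

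CD38, an ectoenzyme that breaks down NAD and is abundant on plasma cells, fell by less. The brighter probe had log2 ratios of -0.46, -0.26, -0.53 and -0.66 on a signal 44.8 to 58.4 times background over both grades. The dimmer probe had -0.46, -0.42, -0.28 and -0.38. The brighter probe was 1.39-fold lower (fitted log2 ratio -0.48, SE 0.05, with limma adjusted p = 3.95e-05) and the dimmer 1.31-fold (adjusted p = 7.23e-05). Their difference of -0.09 ± 0.21 (SD, 4 arrays) lay within its spread. With spike-in scaling both turned to 0.19 and 0.28, and the dimmer probe lost its call with backgrounds as measured (adjusted p = 0.102).

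CD4 and the brighter CD8A probe changed least, while the dimmer CD8A probe lay below both CD38 probes. CD4, carried by helper T cells and in dogs by neutrophils as well, had log2 ratios of -0.17, -0.17, -0.15 and -0.20, the narrowest range of the 11 probes. CD4 was 1.13-fold lower (fitted log2 ratio -0.17, SE 0.05, with limma adjusted p = 0.009), and 26.2% of tested probes were as low. Without replicate 2 with grade 1 in Cy5 its adjusted p was 0.0728, with median centring 0.0667 and with backgrounds as measured 0.256. CD8A, the alpha chain of the cytotoxic T cell co-receptor, had -0.30, -0.36, -0.51 and -0.27 by its brighter probe, which was 1.28-fold lower (adjusted p = 0.000272). Its dimmer probe had -0.49, -0.56, -0.80 and -0.79 and was 1.58-fold lower (adjusted p = 1.59e-06). The brighter probe exceeded the dimmer on 4 of 4 arrays, by 0.30 ± 0.15 (SD), so the size of the CD8A change depended on the probe. With spike-in scaling CD4 turned to 0.50 and the CD8A probes to 0.31 and 0.0086, and with backgrounds as measured neither CD8A probe was called (adjusted p = 0.104 and 0.0875).

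IL2RG rose, against the other markers. It encodes the receptor chain shared by interleukins 2, 4, 7, 9, 15 and 21. Its signal over background in grade 3 was 15.1, 8.93, 16.5 and 17.3. In grade 1 it was 6.66, 6.0, 6.45 and 6.13, so the grades did not overlap and grade 1 hardly varied. Before normalization every grade 3 value lay above every grade 1 value for 49.5% of tested probes. The gap by itself therefore says little about IL2RG. The log2 ratios were 0.85, 0.40, 0.66 and 0.61, lowest on replicate 2 with grade 3 in Cy5. IL2RG was 1.55-fold higher in grade 3 (fitted log2 ratio 0.63, SE 0.07, with limma adjusted p = 3.39e-05), above 95.3% of tested probes. It was higher under the alternatives run but not called with backgrounds as measured (1.36-fold, adjusted p = 0.0926).

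**Figure D3:**
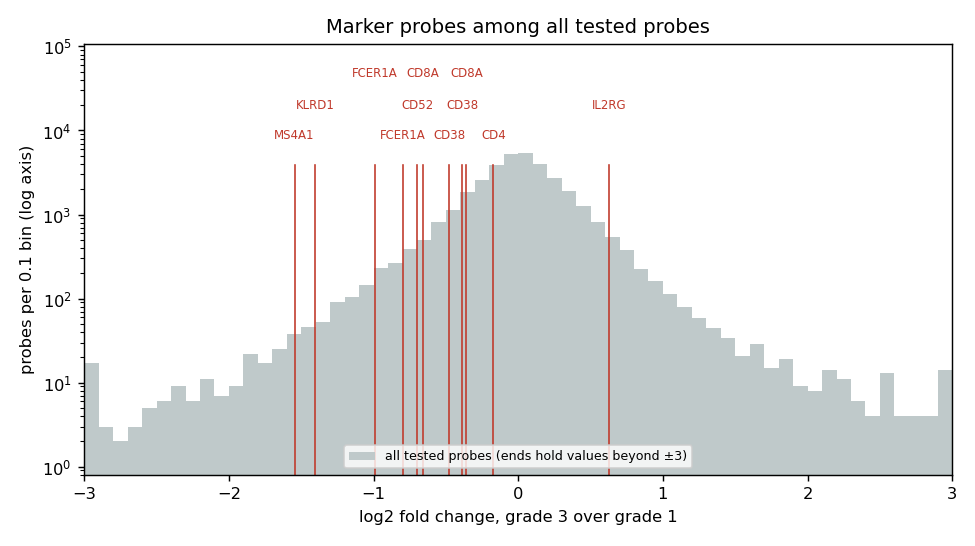
Number of tested probes per bin of log2 fold change of grade 3 over grade 1 (grey, log vertical axis), with a red line at each of the 11 marker probes, named by gene. The markers run from -1.55 for MS4A1 to -0.17 for CD4 on the lower side and to 0.63 for IL2RG on the upper side, where the quartiles of all probes are -0.18 and 0.19.

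Ordered by fold change, neighbouring markers mostly had overlapping ranges over the 4 arrays. The markers share arrays, so a range does not compare them array by array. On every array the brighter FCER1A probe lay above KLRD1. MS4A1 and KLRD1 changed order between arrays, as did CD52 and the brighter CD38 probe. The 4 ratios of MS4A1 (-1.81 to -1.27), KLRD1 (-1.70 to -1.14) and the brighter FCER1A probe (-1.32 to -0.48) overlapped in turn. CD52 (-0.75 to -0.61) and the brighter CD38 probe (-0.66 to -0.26) overlapped by a small margin. CD4 (-0.20 to -0.15) stood apart from both CD8A probes and both CD38 probes, and IL2RG (0.40 to 0.85) from all others.

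Other genes of the same cells were read from 6 lists. Of 118 distinct genes listed, 21 had a tested probe with a name, and 12 of these were called lower, 2 higher and 7 not called. That is 57.1% lower, where 46.1% of all 925 named genes were called lower and 24.1% higher. The counts of each list below are read beside those shares. Of the 21, 4 entered the test through 1 grade only, among them ICOS (well above background on 0 of 4 arrays in grade 3) and IFNG (1 of 4), both called lower. The other 17 were measured on all arrays in both grades, and 10 of them were called lower, 2 higher and 5 not called. These counts hold after loess. With spike-in scaling the mast cell list had 1 gene lower and 5 higher, the T cell list 0 and 2, the cytotoxic and NK list 0 and 3, and the common gamma chain list 0 and 4. Under that scaling 2.59% of all tested probes were called lower and 91.1% higher, so a higher call there says little about these lists. None of the 18 listed pan-leukocyte genes, PTPRC (CD45) among them, was measured under a name.

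Mast cell genes held the fullest list, with 9 of 17 measured: 5 were lower, 1 higher and 3 without a call (median -0.17). All chains of the IgE receptor were lower by each of their tested probes, although FCER1G turned to 0.14 with spike-in scaling. MS4A2, the beta chain, had log2 ratios of -1.02, -1.30, -0.82 and -0.75 and was 1.96-fold lower by its brightest probe (fitted log2 ratio -0.97, SE 0.06, with limma adjusted p = 4.37e-07), and 1.62-fold by the other. FCER1G, the gamma chain that macrophages and other myeloid cells also use, was 1.44-fold lower by both probes. It lies outside the rule for naming genes and, like KIT, was singled out after its values were seen. CMA1, the mast cell protease chymase, was 1.58-fold lower (adjusted p = 2.02e-06). KIT, the growth factor receptor of mast cells that mammary epithelium also makes, had -0.08 ± 0.06 (adjusted p = 0.239) and was not called by any of its 3 probes. KITLG, the ligand of KIT, made mainly by stromal and epithelial cells, was 2.84-fold higher (log2 ratios 1.37, 1.42, 1.57 and 1.65, adjusted p = 8e-09).

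T cell genes were measured for 4 of 24 listed, with 3 lower and 1 not called. With both grades required above background, which leaves out ICOS and FOXP3, 2 were lower. CTLA4, an inhibitory receptor of activated and regulatory T cells, was 1.70-fold lower (fitted log2 ratio -0.77, SE 0.06, with adjusted p = 1.75e-06) and 1.59-fold by its second probe, a call lost with spike-in scaling (-0.10, adjusted p = 0.33). CD28, the costimulatory receptor, was 1.39-fold lower (adjusted p = 2.21e-05), though 0.19 with spike-in scaling. Of 21 cytotoxic and NK genes 3 were tested, 2 lower and 1 higher, and 1 lower without IFNG. PRF1, the pore-forming protein perforin, fell by 0.14 on the log2 scale, a call lost without the dye term (adjusted p = 0.101) and on leaving out any one of 3 arrays (up to 0.194) and turned to 0.53 by spike-in scaling. IFNG, interferon gamma, was well above background in grade 3 on 1 of 4 arrays only, and its log2 ratio was -0.33 with the offset of 50 and -2.00 with processed signals, so its size is not settled. NCAM1 (CD56), a human NK cell marker that nerve and muscle also express, was 2.31-fold higher, and its dimmer probe gave 1.39-fold. CD40, the only measured gene of 22 for B and plasma cells and one that macrophages and dendritic cells share, was 2.02-fold lower (log2 ratios -1.02, -0.85, -1.10 and -1.09, adjusted p = 1.4e-07) and 1.55-fold by its second probe.

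Of 18 genes listed for the common gamma chain (cytokines, receptor chains and their signalling proteins), 5 were tested. None was called higher after loess: 2 were lower and 3 without a call (median -0.09). By the mean of each gene's probes 4 were lower, and with processed signals 3. IL4 was 1.40-fold lower (adjusted p = 2.51e-05). IL2RA, the alpha chain of the interleukin 2 receptor, had log2 ratios of 0.05, -0.39, -0.33 and -0.12 by its brightest probe. The call of that probe (adjusted p = 0.0366) was lost when replicate 2 with grade 3 in Cy5 was left out (0.221), and likewise for replicate 1 of the arrays with grade 1 in Cy5 (0.175). The dimmer IL2RA probe was also called lower, at -0.23 (limma adjusted p = 0.00191). IL15 had -0.07 ± 0.05 (adjusted p = 0.245). With spike-in scaling IL4, IL2RA and IL15 turned to 0.19, 0.47 and 0.60. With backgrounds as measured MS4A2, CMA1, KITLG and CD40 kept their calls, while CTLA4, CD28, FCER1G, NCAM1, IFNG, PRF1, IL4 and IL2RA lost theirs (adjusted p from 0.0632 to 0.488).

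**Figure D4:**
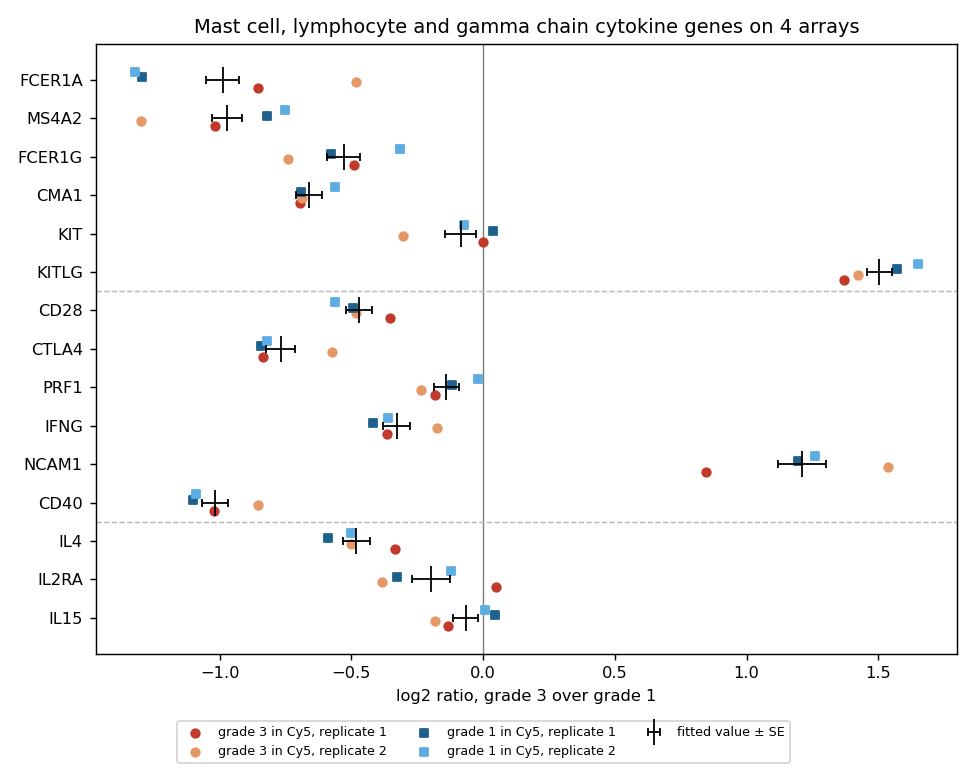
Log2 ratios of grade 3 over grade 1 (horizontal axis) on the 4 arrays for genes of mast cells (top block), T, NK and B cells (middle block) and common gamma chain cytokines and receptors (bottom block), with fitted value and SE in black. MS4A2, CMA1 and CD40 lie below 0 and KITLG and NCAM1 above 0 on all 4 arrays, while KIT and IL15 scatter around 0; spike-in scaling moved KIT, IL15, FCER1G, CMA1, CD28, PRF1, IFNG, IL4 and IL2RA above 0.

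Markers of other cells moved between the grades as well. Of all 925 named genes, 46.1% were called lower and 24.1% higher. All 3 measured of 10 monocyte and macrophage markers (CD163, FCGR1A and CD86) were lower, with a summed intensity of 12037 to 13309 over the arrays in grade 3 and 25957 to 28057 in grade 1. All 3 measured of 7 neutrophil markers (S100A8, CAMP and ELANE) were lower, with sums of 14558 to 16636 and 44530 to 47971. Of 13 mammary epithelial markers 5 were measured, 3 higher and 1 lower. The milk protein genes CSN2, the brightest of the 5, and LALBA were 7.03-fold and 5.66-fold higher, and MUC1 2.27-fold. PGR was 1.49-fold lower and ERBB2 was not called. The sums, which hold the milk protein genes, were 362394 to 472805 in grade 3 and 42189 to 98698 in grade 1. For comparison the mast cell markers, 4 of 6 measured, summed to 3434 to 3540 and 5014 to 5597, and the B cell sum was MS4A1 alone, 110 to 144 and 300 to 386. Of 5 skeletal muscle markers 4 were higher. The 2 endothelial and 3 fibroblast markers measured were lower. COL1A2, the brightest fibroblast marker, had log2 ratios of -0.06, 0.32, -1.28 and -1.17, so it kept no single sign and its fall lay in the arrays with grade 1 in Cy5. The part of these shifts in the lymphocyte and mast cell values was not tested.

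The named genes whose 4 ratios came closest to each marker were found by the root mean square difference over the arrays, among 916 genes. C5AR1, the receptor of complement C5a on myeloid cells, lay 0.07 from MS4A1 and itself had a log2 fold change of -1.54. For KLRD1 the nearest was PTGS2, the inducible cyclooxygenase, at 0.17. IL33, an alarm cytokine of epithelial and endothelial cells, lay 0.10 from the brighter FCER1A probe, and CMA1 lay 0.04 from CD52. The nearest to CD38 was DHDH at 0.04, to CD8A MAOA at 0.06, to CD4 ALDH3A1 at 0.01, and to IL2RG B3GAT2 at 0.08. B3GAT2 rose by its brightest probe (0.69) and fell by its other (-0.55). The other probe of IL33 had -1.61 where its brightest had -0.92, and the other probe of ALDH3A1 had 0.04 (not called) where its brightest had -0.17. These distances describe 4 arrays only.

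Of the alternatives run, the background correction cost the markers the most calls. With backgrounds as measured, 2 of 11 probes were called lower (the brighter probes of CD38 and FCER1A) and none higher, where 12.5% of tested probes were called lower and 6.57% higher. The limma adjusted p of the other 9 lay between 0.0672 for KLRD1 and 0.256 for CD4. The largest change of a marker's log2 ratio was 0.0086 on replicate 1 with grade 3 in Cy5 and 0.19 on replicate 2 with grade 1 in Cy5, but 1.18 on replicate 2 with grade 3 in Cy5 and 1.17 on replicate 1 with grade 1 in Cy5. On those arrays the highest local background of any spot was 309565 and 21363 intensity units, and no marker's own background was marked. MS4A1 then read -1.40, -0.09, -0.52 and -1.63 and KLRD1 -1.19, -0.08, -0.53 and -1.42. Each array was left out in turn under that correction, a step chosen after seeing the data. Without replicate 1 or 2 with grade 3 in Cy5, 2 and 9 marker probes were lower and 0 and 1 higher. Without replicate 1 or 2 with grade 1 in Cy5, 4 and 1 were lower and 0 higher. Over all tested probes, in the same order, 14.6%, 21.4%, 5.83% and 3.5% were called lower, and 7.12%, 21.6%, 3.15% and 1.79% higher. The cause of the lost calls was not tested.

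**Figure D5:**
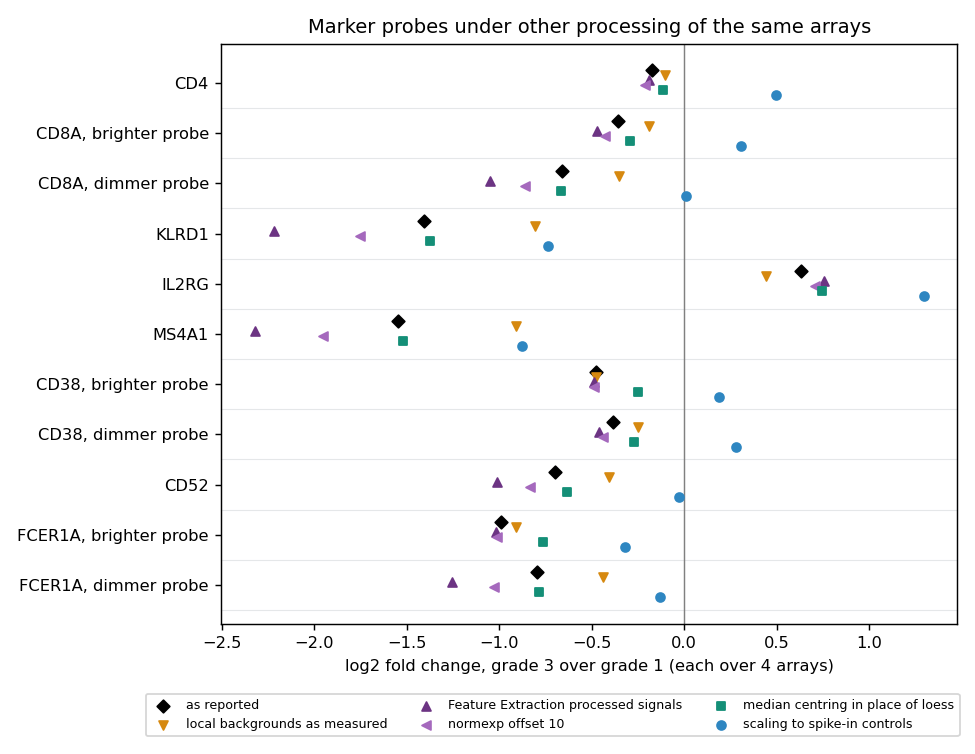
Log2 fold change of grade 3 over grade 1 (horizontal axis) of the 11 marker probes as reported (black) and under 5 other ways of processing the same 4 arrays. MS4A1 and KLRD1 stay below 0 in each of them, from -2.32 and -2.22 with processed signals to -0.88 and -0.74 with spike-in scaling, while CD4, CD8A and CD38 cross 0 with spike-in scaling.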

How the data were processed

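Per the submitters' processing notes, Agilent's Feature Extraction (version 10.7.3.1) made the scanner files. The deposited median signals and local backgrounds are linear intensity values, and the deposited processed signals are intensity values that the program had background-subtracted, detrended and dye-normalized, per the file headers. The LogRatio column and the deposited value table hold log10 ratios, and the largest difference between them was 4.99e-06 once swapped arrays were turned, which gives its direction, grade 3 over grade 1. Grades were assigned to dyes from the labels.

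In R 4.3.3 with limma 3.58.1, local backgrounds marked as outliers (151 to 2352 per array and channel) took the median background of the array in that channel, normexp was applied with an offset of 50, and arrays were normalized by loess with control spots at weight 0. Marked spots (11 to 39 per array) were left out. A probe was tested if either grade was well above background on all 4 arrays, in a fit with grade and dye terms (eBayes, two-sided, Benjamini-Hochberg over all tested probes, threshold 0.05; 2 residual and 7.50 prior degrees of freedom). The number of arrays limits the precision. Symbols came from RefSeq accessions without version (assembly UU_Cfam_GSD_1.0), which named 1648 of 43603 probes, and the brightest probe stood for a gene. Lists were described, not tested. Named genes are all members, the 2 called genes with the largest fold in each direction and the brightest gene of each list, and the gene nearest to each member. The members and lists were chosen with earlier results of these data known. The fit was tested on simulated data with independent noise drawn from its own variances, which cannot show how well it holds on these arrays.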

Additional observations from a re-analysis of the deposited data

Results flagged for a closer look

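Among 33 results (the 11 marker probes, the median over marker genes and the other genes named), 4 had 1 array far from the other 3, by a gap over range above Dixon's 95% critical value. Chance marks about 1 in 20 groups of independent values, and these values share arrays. For the median over the 8 marker genes, replicate 2 with grade 3 in Cy5 had -0.42 where the others had -0.61, -0.63 and -0.64 (gap over range 0.867). CTLA4 had -0.57 on that array where the others had -0.84, -0.84 and -0.82 (0.907). For CMA1, replicate 2 with grade 1 in Cy5 had -0.56 where the others had -0.70, -0.69 and -0.69 (0.944). For ALDH3A1, replicate 1 with grade 1 in Cy5 had -0.16 where the others had -0.18 each (0.867), a difference of small size. No single marker probe passed the critical value.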

How the results depend on the processing

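Over 15 alternatives to the 11 marker probes, 147 of 165 values kept direction and side of the threshold, 13 lost the call and 5 turned, all 5 with spike-in scaling. The alternatives are not independent. Dropping the dye term, changing the filter or adding a replicate block left every marker's fold change as it was, so only calls could change. The series value table repeated the processed signals. With local backgrounds as measured, 2 marker probes and 2 genes were lower and 0 higher, the median over marker genes was -0.44, and 4418 of all probes were lower and 2327 higher (main 10800 and 11028). With spike-in scaling 3 marker probes and 3 genes were lower, 4 probes and 3 genes higher, the marker median turned to 0.080, and of all probes 917 were lower and 32258 higher. It turned CD4 to 0.50, CD8A to 0.31 and 0.0086, CD38 to 0.19 and 0.28, CD28 to 0.19, PRF1 to 0.53, IFNG to 0.34, CMA1 to 0.0070, IL4 to 0.19, IL15 to 0.60, IL2RA to 0.47, FCER1G to 0.14, KIT to 0.58, ALDH3A1 to 0.49, MAOA to 0.30 and DHDH to 0.19. The marker median was -0.75 with processed signals or the series value table and -0.46 with median centring, which raised the share of calls that were higher from 50.5% to 63.9% and turned ALDH3A1 to 0.060. The causes were not tested. Leaving out 1 array gave 9 or 10 lower marker probes, and, with backgrounds as measured (chosen after seeing the data), 1 to 9 lower and 0 to 1 higher. Same-numbered arrays correlated at -0.09 in their deviations. With 2 arrays per dye order, this cannot settle whether the numbers pair arrays. The replicate block, as a fixed term or by averaging, gave 10 lower and 1 higher marker probes, as without it. Dim spots limit the sizes: with an offset of 10 in place of 50, MS4A1 was 3.86-fold and KLRD1 3.37-fold lower.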
